A study of Mus musculus with 24 samples.

Results

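Trophoblast and epithelial lineage genes were followed in mouse E14 embryonic stem cells, wild type or labelled as Smad2 knockout. The 34 genes were chosen by symbol and fall into 3 groups: 19 transcription factors of the trophoblast, 5 placental genes, and 10 keratins, claudins and other epithelial genes. All 34 had values in both of the authors' deposited tables, among 19780 genes for control cells and 19979 for paused cells. The genes were put forward with the changes in both tables in view, so their counts and changes are given here as a description and not as independent evidence.

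The study holds 24 poly(A) RNA libraries, 4 in each of 6 groups. The groups were wild-type cells (WT) and 2 knockout lines (Smad2_KO1 and Smad2_KO2), each in control medium and each in a paused state. All cells grew for 12 h on gelatin in medium with fetal bovine serum and LIF, and the paused groups also received 200 nM of INK128, which blocks the nutrient-sensing kinase mTOR. E14 is an established line from the inner cell mass, and Smad2 is a transcription regulator activated by Nodal and activin receptors. Each knockout genotype is a separate line, and how the lines were made was not given in the sources used here. Nothing in the labels says that replicates came from separate cultures, so the p-values measure the spread between libraries, which may be technical. A difference between the wild-type and knockout lines that does not come from Smad2 cannot be told apart from the knockout.

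The deposited tables give 1 mean normalized read count, 1 log2 change, its standard error (SE) and an adjusted p per gene and condition. They give no value for a single library, so neither the depth of a library nor the overlap of groups can be shown, and the 2 knockout lines cannot be told apart. The tables do not name the numerator. Changes are read as knockout over wild type because the authors' deposited tables put Smad2 itself lower, at -0.35 in control and -0.63 in paused cells on the log2 scale (adjusted p 6.5e-06 and 4.1e-26). Smad2 RNA was still present, at means of 3123 and 3214 normalized counts in the authors' deposited tables, so these values do not show the cells to lack Smad2. If the numerator were wild type, all directions given here would swap. A gene is said to have risen or fallen where the authors' adjusted p was under 0.05.

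The trophoblast is the lineage that leaves the embryo proper at the blastocyst stage and builds the placenta. In the mouse trophectoderm, TEAD4 and its coactivator YAP switch on Cdx2 and Gata3, while factors such as ELF5, TFAP2C and EOMES keep trophoblast stem cells in their state and GCM1, HAND1, ESX1 and DLX3 act in its differentiated layers. Trophectoderm is also a polarized epithelium, with simple keratins (KRT7, KRT8, KRT18, KRT19) in its cytoskeleton and claudins in its tight junctions. Embryonic stem cells seldom enter this lineage, and the keratins and claudins named here are not specific to it.

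The transcription factors and the epithelial genes did not share 1 direction. In the authors' deposited control table, calls were made for 21 of the 34 genes, against 41.4% of all genes with a p. Of the 34 genes, 14 rose and 7 fell, against 19.5% and 21.9%. In the authors' deposited paused table, 25 were called, against 42.6% of all genes: 16 rose and 9 fell, against 20.5% and 22%. Called changes of at least 2-fold numbered 9 up and 2 down in the authors' deposited control table (4.46% and 2.52% of all genes), and 9 up and 3 down in the paused one (4.89% and 2.21%). Both tables called 14 genes higher and 5 lower, against 14.3% and 16% of the 19134 genes in both, and no member was called in opposite directions. The genes higher in both authors' deposited tables were Gata2, Gata3, Hand1, Esx1, Elf3, Tfap2a, Tead4, Dlx3, Msx2, Plac1, Plet1, Duox2, Krt7 and Lgals3. Those lower in both were Cdx2, Plac8, Perp, Cldn6 and Cldn7. As the genes were chosen with these changes known, nothing is read from the counts against the shares of all genes. The median change of the 34 genes was 0.13 in the authors' deposited control table and 0.16 in the paused one, beside 8.5e-04 and -0.0016 for all genes.

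**Figure D1:**
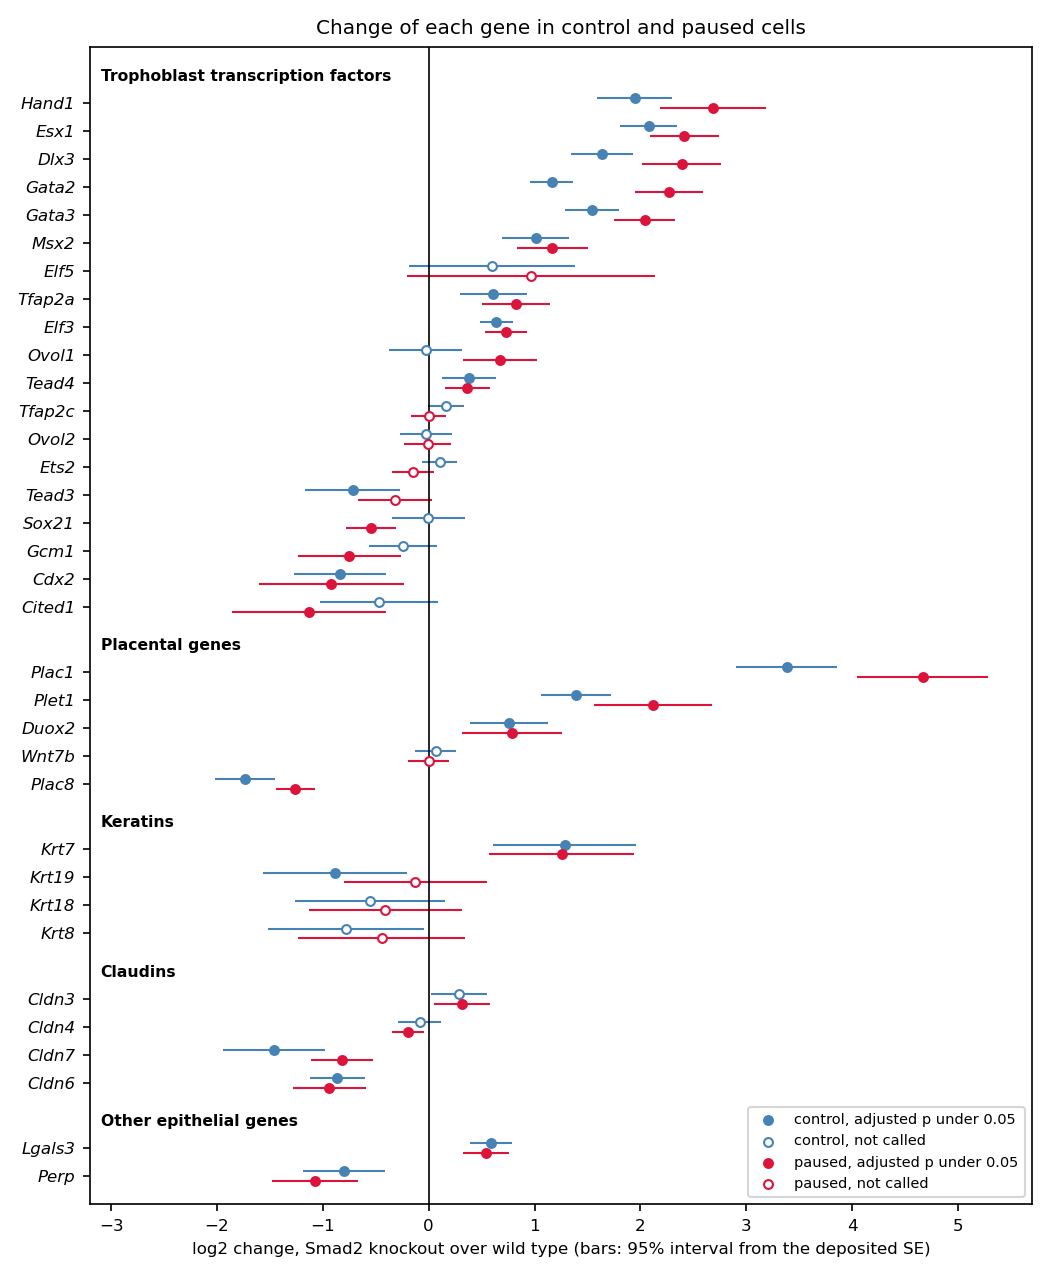
Log2 change of each of the 34 genes (knockout over wild type, horizontal axis) in control cells (blue) and paused cells (red), by group. Points are the deposited changes, bars the 95% interval from the deposited SE, and open points were not called. Plac1 lies farthest to the right (3.38 and 4.67), Plac8 is the lowest value in control cells (-1.74), and the bars of the 4 keratins are wide.

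Among the trophoblast transcription factors, 9 of 19 rose and 2 fell in the authors' deposited control table, with a median of 0.38, against 19.5% and 21.9% of all genes. For paused cells the authors' deposited table had 10 that rose and 4 that fell, with a median of 0.68, against 20.5% and 22% of all genes. The largest rises were those of Hand1, Esx1, Dlx3, Gata2 and Gata3. The authors' deposited control table gave Esx1, a homeobox gene of the placental labyrinth on the X chromosome, a mean of 377.3 normalized counts and a 4.22-fold rise (95% interval 3.51 to 5.08, adjusted p 6.64e-50). In paused cells its mean was 406.8 and its rise 5.33-fold (4.25 to 6.69, adjusted p 6.09e-45 in the authors' deposited table). Hand1, a basic helix-loop-helix factor needed for trophoblast giant cells, rose 3.86-fold in control (3.01 to 4.94, mean 419.8) and 6.45-fold in paused cells (4.56 to 9.13, mean 337.2) of the authors' deposited tables. Dlx3, a homeobox gene needed for the labyrinth, rose 3.11-fold (2.53 to 3.80, mean 303.6) and 5.24-fold (4.04 to 6.80, mean 292.8) in the authors' deposited control and paused tables.

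Gata2 and Gata3 code for zinc finger factors that share targets in trophoblast. The authors' deposited control table put the Gata2 mean at 1430 normalized counts and its rise at 2.24-fold (1.95 to 2.57, adjusted p 1.78e-27). The authors' deposited paused table gave a mean of 1185 and a 4.82-fold rise (3.86 to 6.02, adjusted p 3.9e-41). Gata3 rose 2.91-fold in control cells (2.44 to 3.48, mean 607.8) and 4.12-fold in paused cells (3.37 to 5.02, mean 622.3) of the authors' deposited tables. Both genes thus rose in both conditions, with intervals above no change that rest on the spread between libraries. Msx2, a homeobox gene that responds to BMP signals, rose 2.02-fold (1.62 to 2.51) and 2.25-fold (1.78 to 2.84) in the authors' deposited control and paused tables. Smaller rises were those of Elf3, an ETS factor of epithelia (1.56-fold and 1.66-fold), Tfap2a, an AP-2 factor of surface ectoderm and trophoblast (1.53-fold and 1.77-fold), and Tead4 (1.30-fold and 1.29-fold) in the authors' deposited tables.

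Cdx2, Elf5 and Tfap2c, factors of trophoblast stem cells, were not called higher in either table as deposited. Cdx2, the caudal homeobox factor that sets up the trophectoderm, fell to 55.9% of the wild-type level in the authors' deposited control table (95% interval 41.3 to 75.7, mean 170.4, adjusted p 7.93e-04). It fell to 52.9% in the authors' deposited paused table (32.8 to 85.1, mean 140.2, adjusted p 0.0236). Elf5, an ETS factor of trophoblast stem cells, had means of only 15.0 and 7.32 normalized counts in the authors' deposited control and paused tables. Its changes of 0.60 (SE 0.40) and 0.97 (SE 0.60) in those authors' deposited tables were not called, with intervals that reach from 0.877-fold to 2.61-fold and from 0.865-fold to 4.41-fold. Tfap2c, an AP-2 factor of trophoblast and germ cells, was by contrast abundant, at 5071 and 5499 normalized counts, and was not called (1.12-fold, interval 0.995 to 1.26, and 1.00-fold, interval 0.891 to 1.12, in the authors' deposited tables). With equal summed counts in both genotypes, Tfap2c was called higher in control cells (0.22 on the log2 scale). Ets2, an ETS factor of the trophoblast, was not called either (values of 0.10, SE 0.08, and -0.15, SE 0.10, in the authors' deposited tables). Eomes, named with them above and listed with other trophoblast progenitor genes, fell by 0.94 in the authors' deposited control table and had a value of -0.06 in the paused one.

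Other factors were called in 1 table alone. Tead3, a relative of Tead4 that is high in placenta, fell to 60.8% of wild type in the authors' deposited control table (44.6 to 82.8) and was at 80.2% in the paused one (62.9 to 102). Gcm1, the switch for syncytiotrophoblast, fell to 59.5% in the authors' deposited paused table (42.5 to 83.3) and was at 84.5% in the control one (67.9 to 105). Cited1, a transcriptional coactivator needed for placental growth, fell to 45.7% in the authors' deposited paused table (27.6 to 75.9) against 72.4% in control cells (49.2 to 106). Sox21, a SOX factor of early lineage choice, fell to 68.5% in the authors' deposited paused table (58.2 to 80.6) against 99.7% in control cells (78.4 to 127). Ovol1, a zinc finger repressor of epithelia and trophoblast, rose 1.60-fold in the authors' deposited paused table (1.26 to 2.03) against 0.980-fold in control cells (0.772 to 1.24). For none of these 5 did the difference between conditions pass its own test, so a call in 1 table does not show that the effect differed. Ovol2, a paralog of Ovol1, was called in neither of the authors' deposited tables (0.982-fold, 0.827 to 1.17, and 0.992-fold, 0.853 to 1.15).

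Promoter sequence is shown for Gata2, Gata3, Esx1 and Plac1, which rose in both conditions, and for Cdx2, which fell. Each stretch is the 250 bases before a RefSeq transcription start (GRCm38.p6, the build that mm10 names), written 5′ to 3′ on the strand of the gene. Capitals mark matches on either strand to the letters CAGAC, known to be bound by SMAD3 and SMAD4, or to the letters GGCGCC, a SMAD motif rich in G and C. For Gata2 and Plac1 both listed starts are given, those of Gata2 at chr6:88193641-88193890 and chr6:88198414-88198663 on the plus strand. The minus-strand stretches lie at chr2:9878601-9878850 for Gata3, chrX:137120327-137120576 for Esx1, chrX:53240111-53240360 and chrX:53114406-53114655 for Plac1, and chr5:147307250-147307499 for Cdx2.
Gata2 upstream start: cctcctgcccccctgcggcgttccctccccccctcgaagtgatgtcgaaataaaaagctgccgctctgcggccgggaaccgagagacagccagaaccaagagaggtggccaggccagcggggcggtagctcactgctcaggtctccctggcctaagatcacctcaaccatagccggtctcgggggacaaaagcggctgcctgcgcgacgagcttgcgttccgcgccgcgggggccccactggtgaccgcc
Gata2 downstream start: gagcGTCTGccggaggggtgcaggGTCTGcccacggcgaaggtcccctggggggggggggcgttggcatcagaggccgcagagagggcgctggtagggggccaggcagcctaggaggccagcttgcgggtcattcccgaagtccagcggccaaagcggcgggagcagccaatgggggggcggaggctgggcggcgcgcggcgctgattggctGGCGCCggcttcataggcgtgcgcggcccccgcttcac
Gata3: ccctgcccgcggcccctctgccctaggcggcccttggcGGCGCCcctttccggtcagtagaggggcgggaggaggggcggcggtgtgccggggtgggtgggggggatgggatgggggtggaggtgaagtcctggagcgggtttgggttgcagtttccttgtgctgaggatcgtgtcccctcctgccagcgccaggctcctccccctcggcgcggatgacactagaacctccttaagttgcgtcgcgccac
Esx1: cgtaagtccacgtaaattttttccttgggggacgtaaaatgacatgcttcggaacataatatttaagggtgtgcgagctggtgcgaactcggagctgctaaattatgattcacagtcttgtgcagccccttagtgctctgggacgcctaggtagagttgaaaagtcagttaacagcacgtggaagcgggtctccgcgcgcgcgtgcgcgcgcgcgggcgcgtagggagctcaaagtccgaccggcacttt
Plac1 upstream start: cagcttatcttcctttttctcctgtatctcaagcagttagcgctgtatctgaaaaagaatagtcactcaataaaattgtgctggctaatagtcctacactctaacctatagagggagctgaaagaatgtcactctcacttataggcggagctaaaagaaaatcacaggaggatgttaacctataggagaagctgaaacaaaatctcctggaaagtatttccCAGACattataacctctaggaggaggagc
Plac1 downstream start: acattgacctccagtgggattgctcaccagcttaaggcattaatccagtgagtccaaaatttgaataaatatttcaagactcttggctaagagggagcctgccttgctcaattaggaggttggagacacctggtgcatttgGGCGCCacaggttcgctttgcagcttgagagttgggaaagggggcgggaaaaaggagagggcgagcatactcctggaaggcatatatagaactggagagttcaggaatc
Cdx2: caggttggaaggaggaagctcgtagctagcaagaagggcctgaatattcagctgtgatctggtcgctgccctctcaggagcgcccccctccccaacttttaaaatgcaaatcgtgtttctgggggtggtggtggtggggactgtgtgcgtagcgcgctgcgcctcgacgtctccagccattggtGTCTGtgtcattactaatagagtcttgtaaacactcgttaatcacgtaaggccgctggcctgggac

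In these stretches the upstream Gata2 start and Esx1 had 0 matches. The downstream Gata2 start had 2 matches of the first motif and 1 of the second, and Gata3 had 1 of the second. Plac1 had 1 of the first at its upstream start and 1 of the second at its downstream start, and Cdx2 had 1 of the first. No match says only that these letters are not in the window. Of the 34 genes, 26 had a promoter in the RefSeq table. Over the full 300 bases, 250 before and 50 after the first listed start, CAGAC was found in 15 of the 26 (57.7%), against 49.7% of 27025 promoters. The motif GGCGCC was found in 3 of 26 (11.5%, against 12.0%), the GATA motif AGATAA in 2 (7.69%, against 11.4%), and the TEAD motif GGAATG in 5 (19.2%, against 14.6%). The AP-2 motif GCCNNNGGC, whose ends can overlap GGCGCC, was found in 7 (26.9%, against 16.5%). Among the 14574 promoters of genes in either table, which hold more CpG, the shares were 48.7% for CAGAC, 18.4% for GGCGCC, 7.48% for AGATAA, 13.0% for GGAATG and 22.9% for the AP-2 motif. The 2 GATA matches lay at Plac1 and Krt8. All motifs were read on both strands, and a match is a description of letters and not a binding site.

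The 5 placental genes held the steepest change of all. Plac1 codes for a secreted or membrane-bound trophoblast protein and lies on the X chromosome (chrX:53069995-53240111, minus strand). In control cells its mean was 167.9 normalized counts and it rose 10.4-fold (95% interval 7.49 to 14.5, adjusted p 1.61e-41 in the authors' deposited table). In paused cells its mean was 164.5 and it rose 25.4-fold (16.5 to 39.0, adjusted p 1.42e-46 in the authors' deposited table). Plet1, a surface protein of trophoblast progenitors, rose 2.62-fold (2.09 to 3.29, mean 178.7) and 4.34-fold (2.95 to 6.38, mean 183.5) in the authors' deposited control and paused tables. Duox2, a dual oxidase, rose 1.69-fold (1.31 to 2.19) and 1.73-fold (1.25 to 2.39) from low means of 55.3 and 33.3 normalized counts in the authors' deposited tables.

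Plac8, a small cysteine-rich protein that is also made outside the placenta, went the other way. It fell to 30.0% of the wild-type level in the authors' deposited control table (24.7 to 36.5, mean 646.6, adjusted p 2.68e-31) and to 41.7% in the paused one (36.7 to 47.4, mean 502.8, adjusted p 7.72e-39). Wnt7b, a WNT ligand needed for fusion of the chorion with the allantois, was not called in the authors' deposited tables (1.05-fold, 0.916 to 1.19, and 1.00-fold, 0.872 to 1.15), at means of 1418 and 1295. Of the placental genes, 3 rose, 1 fell and 1 was not called in each table, against 41.4% and 42.6% of all genes called.

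The epithelial group was mixed, and the all-gene shares beside its counts are 19.5% higher and 21.9% lower in control and 20.5% and 22% in paused cells. Of its 10 genes, 2 rose and 4 fell in the authors' deposited control table (median -0.67), and 3 rose and 4 fell in the paused one (median -0.30). Claudins seal the space between neighbouring epithelial cells. Cldn7 fell to 36.3% of wild type in the authors' deposited control table (25.9 to 50.8, mean 431.1) and to 56.7% in the paused one (46.3 to 69.4, mean 523.9). Cldn6, a claudin of early epithelia and pluripotent cells, fell to 55.0% (45.9 to 65.8, mean 2236) and 52.2% (41.2 to 66.1, mean 1642) in the authors' deposited tables. Perp, a membrane protein of desmosomes and a p53 target, fell to 57.5% (43.9 to 75.2) and 47.6% (35.9 to 62.9) in the authors' deposited control and paused tables. Cldn3 and Cldn4, which bind the same bacterial toxin, lie 39279 bases apart on chromosome 5 with 0 protein-coding genes between them. In the authors' deposited paused table Cldn3 rose 1.24-fold (1.04 to 1.49) and Cldn4 fell to 87.4% (78.7 to 97.1), and neither was called in control cells (1.22-fold, 1.01 to 1.47, and 94.2%, 81.9 to 108). With equal summed counts in both genotypes the paused call of Cldn4 was lost and Cldn3 was called in control cells as well.

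Keratins are the intermediate filaments of epithelia, and KRT8 pairs with KRT18 and KRT7 with KRT19 or KRT18. Krt7 rose 2.44-fold in the authors' deposited control table (1.52 to 3.90, mean 654.7) and 2.39-fold in the paused one (1.49 to 3.83, mean 847.1). Krt19 fell to 54.1% in the authors' deposited control table (33.7 to 86.7, mean 1264) and was not called in the paused one (91.6%, 57.4 to 146, mean 1605). Krt8 was the most abundant of the 34 genes, with means of 6942 and 7552, and was not called (58.3%, 35.0 to 97.1, adjusted p 0.0831, and 73.6%, 42.6 to 127, adjusted p 0.393, in the authors' deposited tables). Krt18 was not called either (68.0%, 41.7 to 111, and 75.3%, 45.5 to 125, in the authors' deposited tables, means 3829 and 5317). Krt8 and Krt18 are neighbours on chromosome 15, 23697 bases apart, and their values lay within each other's intervals in both conditions. Lgals3, a galectin of the trophectoderm and other epithelia, rose 1.51-fold (1.31 to 1.73) and 1.46-fold (1.25 to 1.70) in the authors' deposited tables.

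The changes of the keratins carried far larger SEs than those of other genes of their level. The SE of the Krt8 change was 0.38 in the authors' deposited control table, 7.07 times the median of the 500 genes nearest to it in mean count, and none of those 500 exceeded it. In the authors' deposited paused table the SE was 0.40, or 9.93 times that median, again with none above it. For Krt18 the ratios were 6.18 and 8.86, with 0 of 500 above it in both. Krt19 had ratios of 5.21 and 6.66 and Krt7 of 4.37 and 5.60, with 1 of 500 above each in control cells and 0 in paused cells. Most of the other members also lay above their neighbours: in all, 32 of the 34 were above the median in control and 31 in paused cells, and 10 and 17 were above 2 times it. Among them were Perp (3.31 and 3.82), Tead3 (2.71 and 2.96), Cldn7 (2.72 and 1.96) and Cldn6 (2.22 and 3.36), and also the strong risers Hand1 (2.00 and 2.83), Gata2 (1.63 and 2.83) and Plac1 (1.91 and 2.57). Ovol1 (0.980 and 0.992) and Duox2 (0.972 and 0.982) were like their neighbours. The SE of such a fit reflects the spread between libraries that the fitted groups do not account for. Whether that spread lay between the 2 knockout lines, between replicates or in wild-type cells cannot be told apart in these tables.

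**Figure D2:**
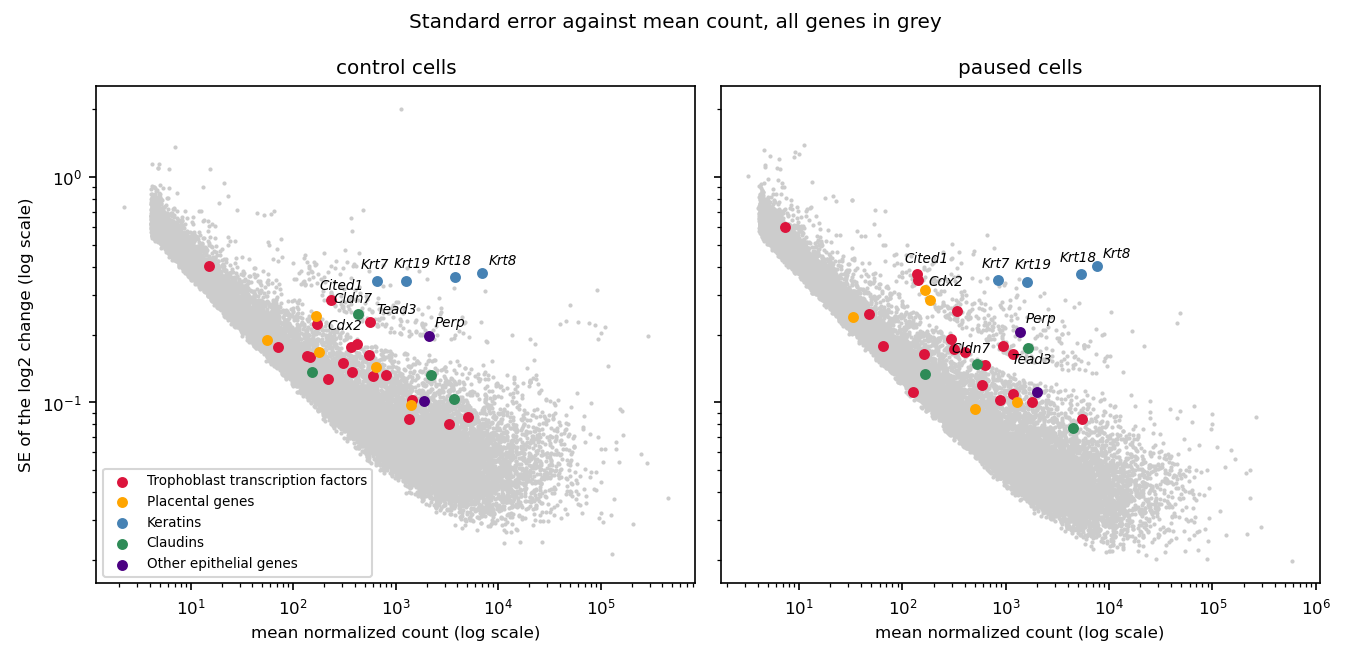
SE of the log2 change (vertical axis, log scale) against mean normalized count (horizontal axis, log scale) for all genes (grey) and the 34 genes (colours by group), in control cells (left) and paused cells (right). The 4 keratins lie above nearly all genes of their count, at an SE of 0.34 to 0.40 where the median SE of the genes nearest to Krt8 is 0.0531 and 0.0405.

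Levels were set side by side per kilobase of exon, with exon lengths from GENCODE M21. Of the 34 genes, Krt8 was highest (3545 normalized counts per kilobase in control and 3857 in paused cells, from the authors' deposited mean counts). Krt18 (2664 and 3700) and Cldn4 (2049 and 2438) came next by the same means. Elf3 and Tfap2c led the transcription factors, at 1483 and 1378 per kilobase in control cells, and with pausing at 816 and 1495. Gata2 (264.8 and 219.6), Hand1 (210.2 and 168.8), Esx1 (190.1 and 205), Gata3 (152.8 and 156.4), Plac1 (120.4 and 117.9) and Dlx3 (116.5 and 112.3) lay in the middle. Cdx2 (75.4 and 62.0), Tfap2a (29.6 and 33.3), Duox2 (8.16 and 4.92) and Elf5 (2.55 and 1.25) were lower. These are means over genotypes, so a gene that rises in the knockout is at a lower level in wild type than its mean. As a share of all counts, the paused mean was 0.362 times the control mean for Gcm1, 0.508 for Elf5 and 0.572 for Elf3, and 1.72 times for Tead3, 1.68 for Sox21 and 1.52 for Tead4. The tables were normalized separately and hold no SE for a level, so these ratios have no test.

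**Figure D3:**
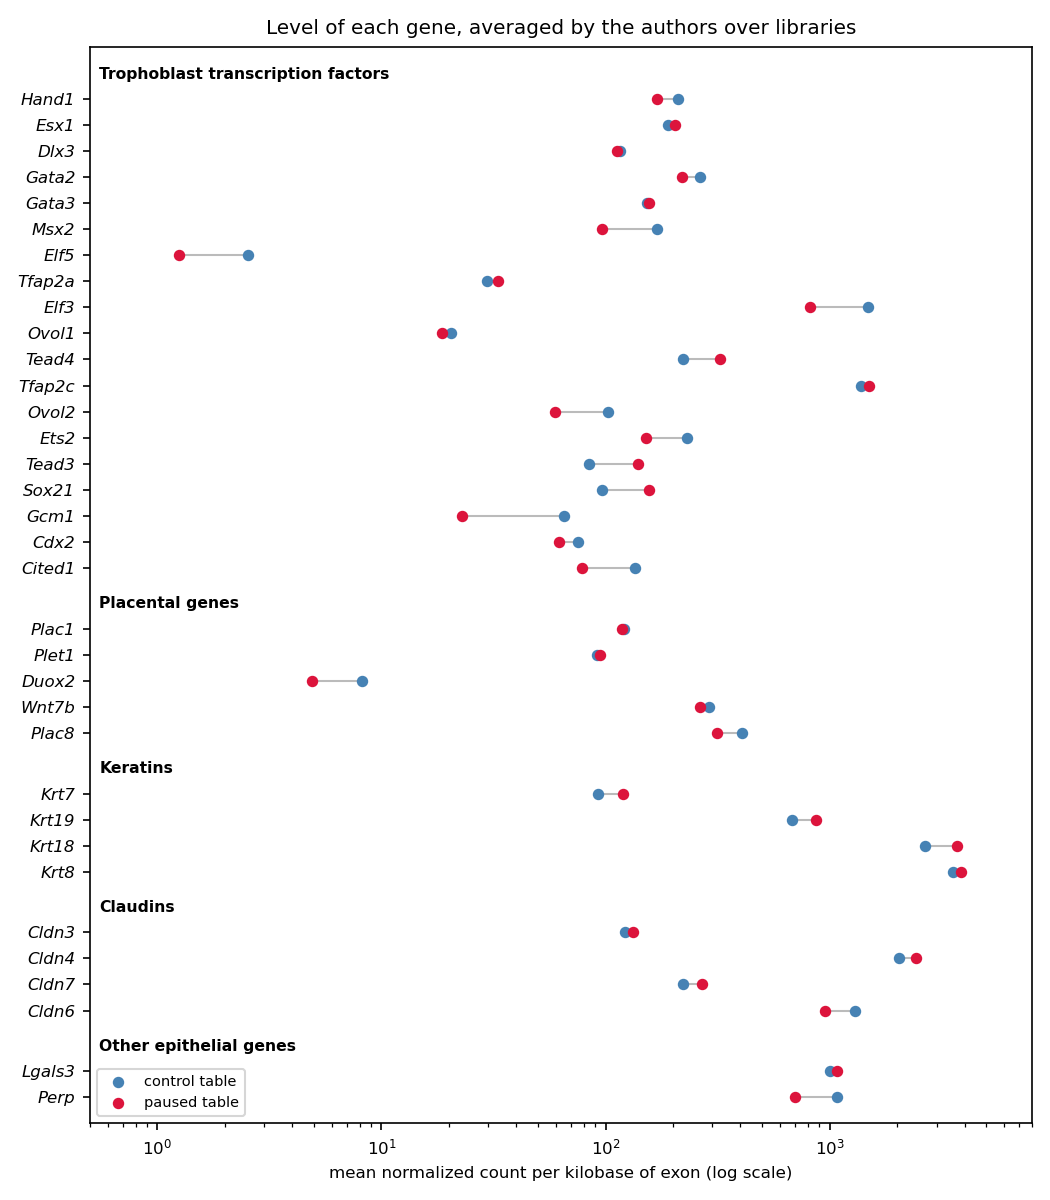
Mean normalized count per kilobase of exon (horizontal axis, log scale) of each gene in the control table (blue) and the paused table (red), averaged by the authors over libraries, with no error available. Values run from 1.25 for Elf5 to 3857 for Krt8, both in paused cells.

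Whether the knockout change differed with pausing was tested as the paused change minus the control change over the combined SE. This SE treats both changes as independent. The same lines are labelled in both conditions, and any spread that they share was not taken into account. The p-values were adjusted by the Benjamini-Hochberg method across 19134 genes. The change of 1 of the 34 genes differed, that of Gata2, and it was larger in paused cells (difference 1.11 on the log2 scale, SE 0.19, 95% interval 0.73 to 1.49, adjusted p 2.94e-05). In the same test 1.44% of all genes were called, 0.716% higher in paused cells and 0.721% lower. At a difference of at least 2-fold these shares were 0.105% and 0.0418%, and Gata2 alone of the 34 passed. With equal summed counts in both genotypes the calls over all genes went from 137 higher and 138 lower to 106 and 189. At an unadjusted p under 0.05 there were 10 of the 34, beside 2464 of all 19134 genes. Other members with a difference above 0.70 were Plac1 (1.29, SE 0.40, adjusted p 0.0701), Dlx3 (0.76, SE 0.24, adjusted p 0.0834), Krt19 (0.76, SE 0.49, adjusted p 0.546, not among the 10), Hand1 (0.74, SE 0.31, adjusted p 0.254), Plet1 (0.72, SE 0.33, adjusted p 0.308) and Ovol1 (0.71, SE 0.25, adjusted p 0.137), none of which passed. Gata3 differed by 0.50 (interval 0.11 to 0.88, adjusted p 0.206). Of the 14 genes that rose in both of the authors' deposited tables, 11 had the larger value in paused cells, beside 1351 of the 2740 genes higher in both, and Tead4, Krt7 and Lgals3 did not. The interval for Cdx2 ran from -0.90 to 0.73. The call of Gata2 was lost against a null of at most a 1.2-fold difference.

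**Figure D4:**
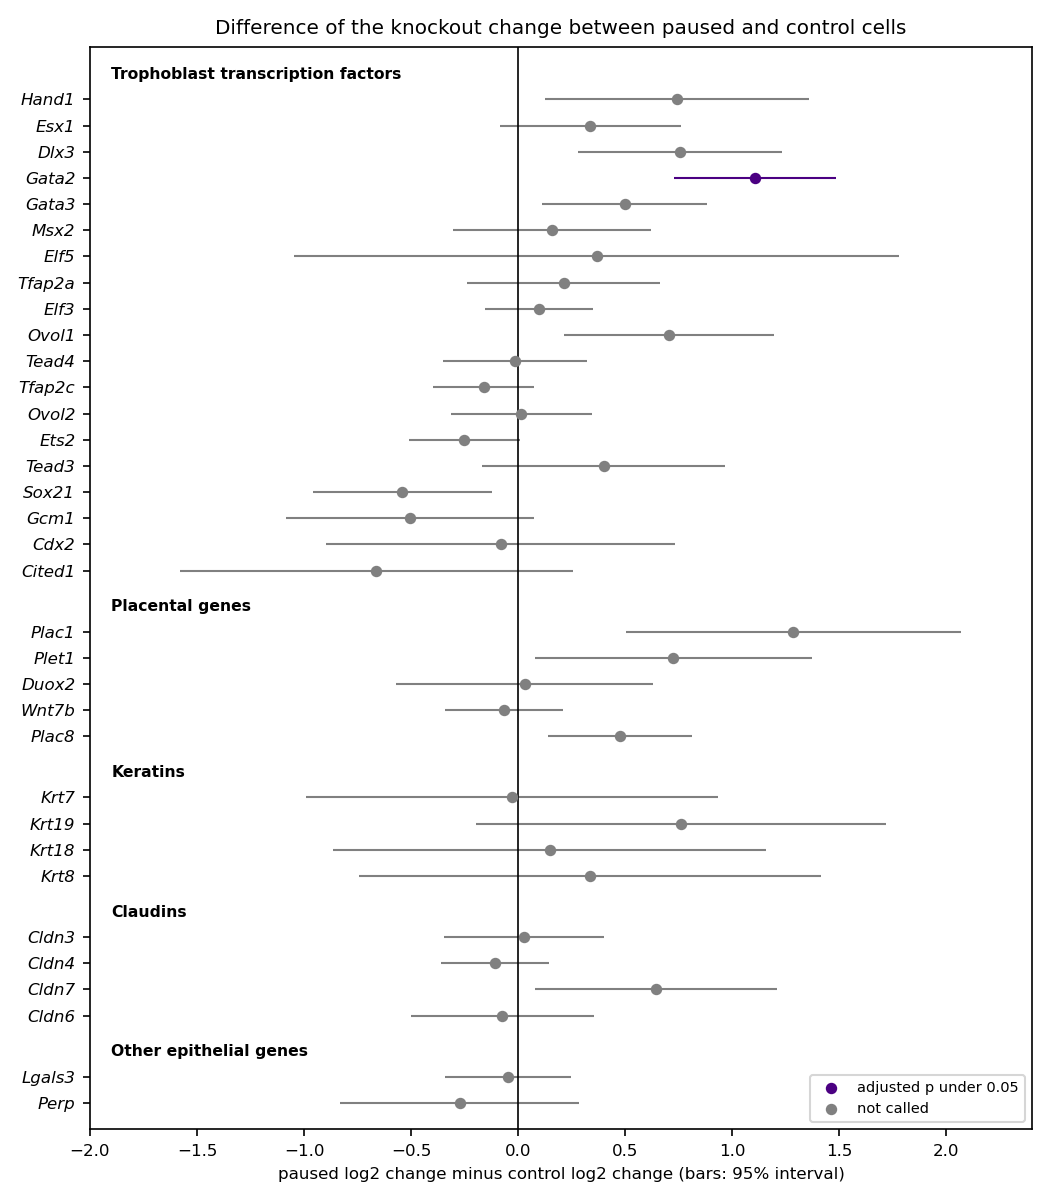
Paused change minus control change for each gene (horizontal axis, log2 scale), with 95% intervals. The purple point, Gata2 at 1.11, is the only one of the 34 with an adjusted p under 0.05, and Plac1 at 1.29 has a wider interval.

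Other genes of the same programs were counted from lists of families and pathways. All counts are to be read beside the 19.5% higher and 21.9% lower of all genes in control cells, and the 20.5% and 22% in paused cells. Of 18 other trophoblast progenitor genes, 17 had values, and 8 rose and 2 fell in the authors' deposited control table (median 0.20), while 10 rose and 1 fell in the paused one (median 0.30). By the larger of their values in the 2 tables, the largest changes in this list were rises of Nr2f2, an orphan nuclear receptor (0.92 and 1.94 in the authors' deposited control and paused tables), Rhox6 (1.33 and 1.49), Ascl2, a factor of the spongiotrophoblast (1.35 and 1.01), and Rhox9 (1.14 and 1.34). Rhox6 and Rhox9 are similar copies on the X chromosome that can share reads, so their separate values are uncertain. Of 18 genes of differentiated trophoblast, 9 had values in control and 10 in paused cells, with 5 higher and 2 lower in the authors' deposited control table and 5 higher and 3 lower in the paused one. They include Gjb2, a connexin (2.79 and 3.71), Pcdh12, a protocadherin at means of 10.8 and 15.8 (1.96 and 2.75), Syna, a syncytin that fuses trophoblast (1.01 and 2.15), and Pgf, a placental growth factor, which fell by 1.76 and 1.71 in the authors' deposited tables. Prl3d1, Prl3b1 and Tpbpa, which mark giant cells and spongiotrophoblast, were among the genes with no values in either condition.

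Paralogs of the transcription factors moved in both directions. Of 26 listed, 20 had values, with 7 higher and 3 lower in each of the authors' deposited tables, or 50% called against 41.4% and 42.6% of all genes (medians 0.05 and -0.03, the latter 0.0086 with equal summed counts). Ranked in the same way, the genes that changed most were Dlx5 (1.50 and 2.20, at means of 24.2 and 5.12), Gata6 (1.76 and 1.35) and Gcm2 (0.91 and 1.44), which rose, and Ets1 (-1.08 and -1.32), which fell, in the authors' deposited control and paused tables. Cdx1, chosen after its values were seen as the nearest relative of Cdx2, fell as well (-1.21 and -0.92 in the authors' deposited tables). The Hippo pathway, which controls YAP and the TEAD factors, had 17 of 18 genes with values, of which 1 rose and 6 fell in each of the authors' deposited tables. That is 41.2% called, near the 41.4% and 42.6% of all genes, so the count is no result about the pathway. The falls of Ankrd1, a YAP target (-0.89 in control cells), Amot and Amotl1, which bind YAP (-0.64 and -0.63 in paused cells), and Ctgf, another YAP target (-0.38 in control cells), had the largest values in the authors' deposited tables. Yap1 itself was not called (-0.02 and -0.04 in the authors' deposited tables).

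Epithelial genes outside the 34 were counted in 3 lists, beside the 19.5% higher and 21.9% lower of all genes in control and the 20.5% and 22% in paused cells. Of 28 genes of junctions and epithelial factors, 2 rose and 16 fell in the authors' deposited control table (median -0.34), and 0 rose and 17 fell in the paused one (median -0.26). Among them were falls of Marveld3, a tight junction protein (-1.25 and -1.09), and Ap1m2, an epithelial adaptor subunit (-1.05 and -0.88) in the authors' deposited control and paused tables. Trp63, a factor of stratified epithelia, rose in control cells (1.74, mean 6.99 normalized counts) and had an uncalled value of -0.11 in paused cells of the authors' deposited tables, and the difference did not pass its test (adjusted p 0.211). Of 15 other keratins, 13 had values, and 0 rose and 4 fell in the authors' deposited control table and 0 rose and 6 fell in the paused one, or 30.8% and 46.2% called against 41.4% and 42.6% of all genes. Krt14 (-1.58 and -2.12) and Krt17 (-1.09 and -1.21) fell in both of the authors' deposited tables, Krt16 and Krt23 in paused cells (-1.34 and -1.61), and several of these are similar copies whose reads can be shared. Of 16 other claudins, 12 had values in control and 11 in paused cells, with 3 higher and 3 lower in the authors' deposited control table and 0 higher and 3 lower in the paused one, or 50% and 27.3% called. Cldn1 fell most in that list (-1.85 and -2.60), while Cldn18 (1.53), Cldn34c1 (1.51) and Cldn2 (0.85) rose in control cells in the authors' deposited tables. Their paused values of 1.49, 1.02 and 0.53 in the authors' deposited table were not called, at means of 4.44 to 12.6 normalized counts, and none of the 3 differences passed its test.

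**Figure D5:**
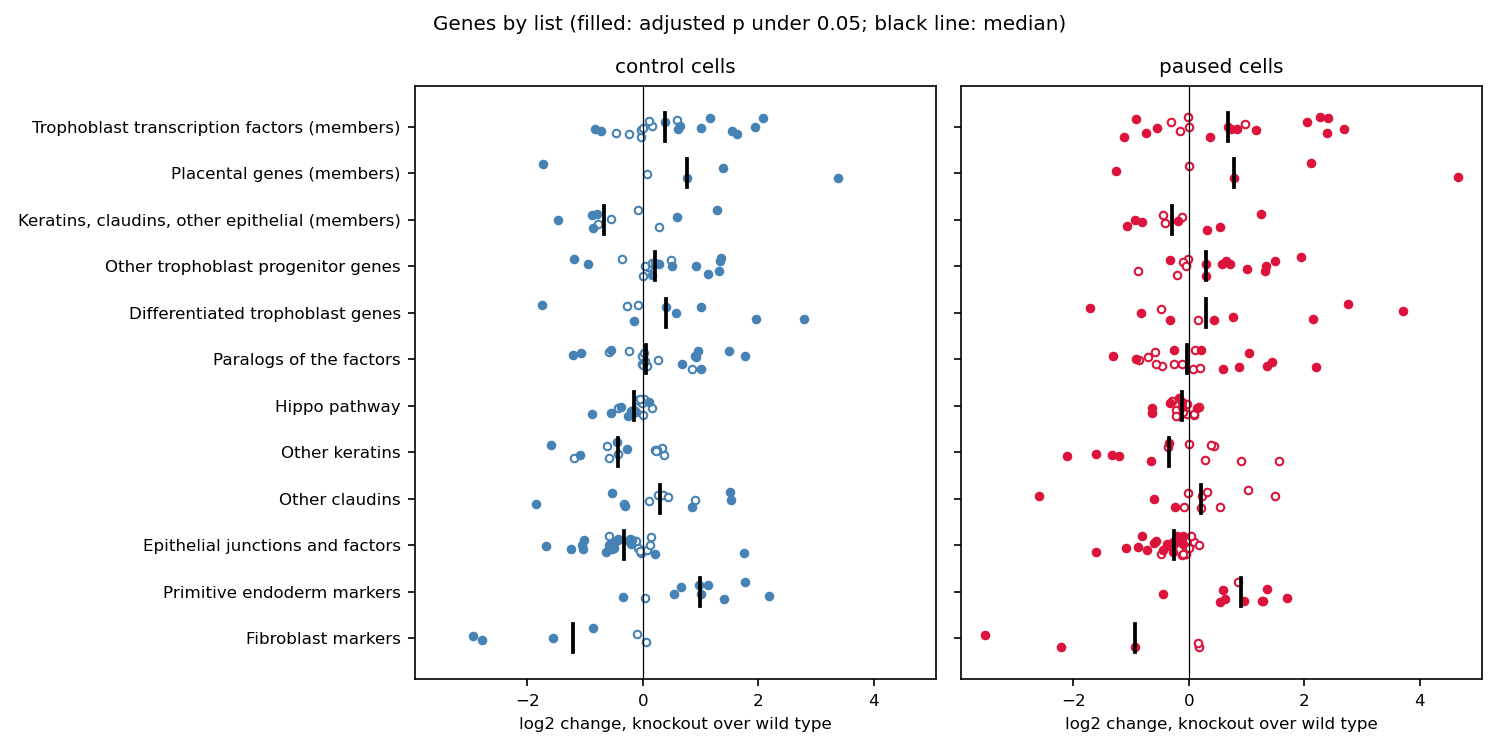
Log2 change (knockout over wild type, horizontal axis) of the genes of each list in control cells (left, blue) and paused cells (right, red). Each point is a gene, filled where the adjusted p was under 0.05, and the black line is the median. The primitive endoderm markers (medians 0.99 and 0.91) lie to the right, and the fibroblast markers (medians -1.22 and -0.93) to the left.

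Markers of 5 other cell types or states were followed beside the 34 genes, against 41.4% of all genes called in control and 42.6% in paused cells. Of 10 primitive endoderm markers, a list that shares Gata4 and Gata6 with the paralogs above, 8 rose and 1 fell in each of the authors' deposited tables, with medians of 0.99 and 0.91. Their summed mean counts were 16249 in control and 16371 in paused cells of the authors' deposited tables. The largest parts were Lamb1 (7163 and 5805), Col4a1 (4130 and 4042) and Lama1 (3927 and 4722). Lamb1 was the marker that fell (-0.34 and -0.45 in the authors' deposited tables). The defining factors were low, with means of 82.6 and 114.5 for Gata6 and 41.1 and 41.9 for Sox17, and none of the 10 was at 0. Of 6 fibroblast markers, 4 fell in the authors' deposited control table and 3 of 5 in the paused one, with medians of -1.22 and -0.93 and summed means of 1009 and 1007. The fall of Col1a1, a collagen chain, was -2.79 and -3.53 in the authors' deposited tables. Of 7 surface ectoderm markers 6 had values, and 2 rose and 1 fell in the authors' deposited control table and 1 rose and 1 fell in the paused one. Of 6 amnion and extraembryonic mesoderm markers 3 had values, of which 0 were called in the authors' deposited control table and 1 rose in the paused one. The pluripotency markers were high, at summed means of 206727 and 154029, and of 6 genes 1 rose and 1 fell in each of the authors' deposited tables. The pluripotency markers (33.3% called in each table) and surface ectoderm markers (50% and 33.3%) were thus called at about the share of all genes. The part of these cells in the changes of the 34 genes was not tested. In bulk RNA a change in the number of cells of a type and a change of RNA per cell cannot be told apart.

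Calls of several genes rest on the authors' SE. With the statistic scaled so that its middle spread equals that of a standard normal, 6 of the 34 genes were higher and 1 lower in each table, and in both tables these were Gata2, Gata3, Hand1, Esx1, Dlx3 and Plac1 and, lower, Plac8. Scaling both genotypes to the same summed count made 16 of the 34 higher and 7 lower in control cells, and over all genes it gave 4763 higher and 3105 lower calls against 3858 and 4331 as deposited. If counting ignored strand, which is not stated, antisense or overlapping genes could raise or lower the counts of Ovol1, Sox21, Ovol2 and Plet1. The direction would depend on how reads on shared bases were assigned, which is also not stated. The exons of these genes overlap such genes over 19.8%, 18.8%, 17.0% and 13.4% of their bases.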

How the data were processed

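Poly(A) RNA of 24 libraries was measured, 4 per group, grouped by the titles of the samples. The submitters' processing notes name FastQC, Trim Galore, HISAT2, featureCounts, DESeq2 and mm10. Annotation, use of strand, filters and the libraries in each fit are not given in the sources used here.

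The authors deposited 2 DESeq2 results tables. Per the file headers, each gene has a mean normalized count, a signal value averaged by the authors over libraries, and a statistic, a score deposited by the authors. The authors' DESeq2 fit gave the deposited log2 changes with their SE. Per the file headers, each gene also has a p-value and an adjusted p-value. The headers name no method of adjustment, and it was read as that of Benjamini and Hochberg. These deposited columns were checked to follow from one another within 1% for all 19778 control and 19979 paused genes with a p. Depth per library is unknown, and the lowest means listed are 2.22 in control and 3.19 in paused cells.

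Deposited tests were used as they stand. Folds and 95% intervals were taken from the deposited change and SE by a normal approximation. The difference of changes was tested with a two-sided normal test. On simulated tables it recovered 68.0% of 200 genes with a 2-fold difference among 19134 (97.7% of 128 with an SE under 0.25). Of its calls there, 4.90% were false. The simulated noise had the SE that the test assumes and was independent between conditions, so this share does not measure false calls in the real data. There, the scaled statistic left 21 higher and 14 lower calls, against 137 and 138. Python 3.11.15, numpy 2.4.6, scipy 1.17.1 and pandas 2.3.3 were used. Gene lengths and positions are from GENCODE M21 and promoters from RefSeq, both GRCm38. One listed gene was matched through an older symbol.

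Members and lists were chosen with earlier results of these data known. All members are named; of each other list, the 4 called genes of largest change, of which 1 is not reported here. Alternatives were stricter thresholds, a shifted null, scaled statistics, other scaling and a count minimum.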

Additional observations from a re-analysis of the deposited data

Results flagged for a closer look

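By the test of the difference itself, the knockout change differed between paused and control cells for 1 of the 34 genes. The same test called 1.44% of all 19134 genes. It also called 1 of 17 other trophoblast progenitor genes and 2 of 9 genes of differentiated trophoblast. Of the paralogs it called 1 of 19, and of the genes of junctions and epithelial factors 1 of 28. No gene of the remaining lists was called. As these genes were chosen with earlier results known, nothing is read from the counts. For Gata2 the difference was 1.11 (SE 0.19, adjusted p 2.94e-05), from 1.16 in control and 2.27 in paused cells of the authors' deposited tables. Syna differed by 1.14 (SE 0.29, adjusted p 0.0145), also toward a larger rise in paused cells. Eomes differed by 0.89 (SE 0.25, adjusted p 0.0326), where the fall was in control cells. Lsr, a protein of junctions where 3 cells meet, differed by 0.44 (SE 0.09, adjusted p 0.00157), falling by 0.64 in control and by 0.20 in paused cells of the authors' deposited tables. Slc16a1, a lactate transporter, differed by 0.31 (SE 0.09, adjusted p 0.0319). Cited4, a paralog of Cited1, differed by -1.09 (SE 0.24, adjusted p 0.00285), with a rise of 0.96 in control cells and a value of -0.13 in paused cells of the authors' deposited tables. Tests for a library that stands apart were not run, as the tables hold no value for a single library.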

How the results depend on the processing

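Counts of called members (control 14 higher and 7 lower, paused 16 and 9, and 1 that differed between them) moved by over 1.5 times under these settings. A change of at least 2-fold left 9 and 2 in control and 9 and 3 in paused cells. Against a null of 1.2-fold, 3 were lower in control and 4 in paused cells, and 0 differed. The scaled statistic left 6 and 1 in each table. Over all genes it left 189 higher and 104 lower in control and 321 and 129 in paused cells, against 3858 and 4331, and 4102 and 4402; the null of 1.2-fold left 1256 and 834, and 1341 and 781. A count minimum of 5 ppm of all counts, which drops the low members, left 23 members in paused cells, of which 10 were higher. Over all genes it left 11006 in paused cells, of which 2221 were higher. Equal summed counts shifted the changes by 0.0552 in control and 0.0353 in paused cells, and values that were not called changed sign: Ovol1 (0.0259), Ovol2 (0.0291) and Sox21 (0.0508) in control, Tfap2c (0.0348), Ovol2 (0.0244) and Wnt7b (0.0349) in paused cells, and the difference of Ovol2 (-0.00475). With genotypes weighted equally, a setting chosen after seeing the data, these were 0.0192, 0.0224, 0.0441, 0.0287, 0.0183, 0.0288 and -0.00410. At an adjusted p of 0.01 the calls of Tead4 and Krt19 in control and of Cdx2, Cldn3 and Cldn4 in paused cells were lost, and against the 1.2-fold null that of Cdx2 was lost in both tables. No called member changed sign under these settings. No paired analysis was possible because the tables hold no values of single libraries; for the same reason no replicate could be left out. Depth limits Elf5 and Duox2 most, with means of 7.32 and 33.3 in paused cells.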
